A study of Mus musculus with 17 samples.

Results

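The MHC class II genes of mouse epididymal fat were followed across 6 genotype-by-diet groups. The set holds 10 genes, taken by symbol under a rule that uses no measured value: H2-Aa, H2-Ab1, H2-Eb1, H2-DMa, H2-DMb1, H2-DMb2, H2-Oa, H2-Ob, Cd74 and Ciita. All 17 probes annotated to these symbols were taken, out of 46237 probes for 21960 symbols on the array. All 10 genes and all 17 probes passed the filter on dim probes, which left 16833 genes for the tests. Of the 10 genes, 8 lie on chromosome 17 in the RefSeq annotation of GRCm38.p6, from the start of H2-Oa at 34092379 to the end of H2-Eb1 at 34316674. Cd74 lies on chromosome 18 and Ciita on chromosome 16.

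The arrays came from male gonadal fat pads, the epididymal adipose tissue, of mice on the WBB6F1 background, a cross of the WB and C57Bl/6 strains. Cpa3+/+ mice carry the normal carboxypeptidase A3 locus and served as the wild type. Cpa3Cre/+ mice carry 1 copy of Cre recombinase knocked into the mast cell gene Cpa3 and lack mast cells, and KitW/Wv mice carry a pair of different mutant alleles of the receptor gene Kit, which all their cells share. Each genotype was kept for 12 weeks either on a high-fat diet (HFD, 60% of calories as fat) or on the low-fat control named LFD in the titles and chow with 6% fat in the protocol, and the fat was taken after a morning fast of 5 h. There were 2 arrays of Cpa3+/+ mice on HFD and 3 arrays in each of the other 5 groups. The labels number the replicates and do not say whether each array is 1 animal, and the p-values therefore speak of differences among arrays, which may be technical.

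MHC class II molecules sit on the surface of antigen-presenting cells such as macrophages, dendritic cells and B cells and show peptides of ingested proteins to CD4+ T cells. The alpha and beta chains (H2-Aa with H2-Ab1 for the I-A molecule, H2-Eb1 for the beta chain of I-E) assemble with the invariant chain Cd74, which fills the groove until proteases trim it. H2-DM (H2-DMa with H2-DMb1 or H2-DMb2) then exchanges the last piece of the invariant chain for a peptide, and H2-DO (H2-Oa with H2-Ob), made mainly by B cells, holds H2-DM back. Ciita is the co-activator that turns on class II genes, docking on proteins bound at an X box and a Y box in their promoters. In adipose tissue, macrophages that gather in obesity and, in several studies, adipocytes themselves have been described as sources of class II.

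The promoter sequences are shown so that the control element of the genes described below can be read directly. RefSeq start windows (GRCm38.p6, 250 bases before to 50 after the start) were at hand for 7 of the 10 genes, with 2 windows for H2-DMa. H2-Ab1, Cd74 and Ciita had no window. Both strands were searched for the Y box core TGATTGG and for AAC, any 2 bases and ATGATG, a form of the X box core chosen after the windows were viewed. The 6 windows that held the Y box core are shown over 100 bases, 5′ to 3′ in the direction of the gene, with the Y box core and, where it was found, the X box core in capitals, and the cores did not overlap.
H2-Aa, chr17:34287844-34287943, minus strand: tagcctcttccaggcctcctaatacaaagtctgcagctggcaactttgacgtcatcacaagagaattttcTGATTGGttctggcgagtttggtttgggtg
H2-Eb1, chr17:34305736-34305835, plus strand: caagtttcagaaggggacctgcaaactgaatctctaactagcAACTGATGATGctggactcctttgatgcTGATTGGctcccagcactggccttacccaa
H2-DMb1, chr17:34153058-34153157, plus strand: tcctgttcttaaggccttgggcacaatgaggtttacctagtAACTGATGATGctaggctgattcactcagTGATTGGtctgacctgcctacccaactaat
H2-DMb2, chr17:34145087-34145186, plus strand: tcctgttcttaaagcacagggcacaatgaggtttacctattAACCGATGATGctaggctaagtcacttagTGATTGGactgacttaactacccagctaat
H2-Oa, chr17:34092264-34092363, plus strand: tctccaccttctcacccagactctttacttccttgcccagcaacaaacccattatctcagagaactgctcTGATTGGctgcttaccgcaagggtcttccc
H2-Ob, chr17:34238776-34238875, plus strand: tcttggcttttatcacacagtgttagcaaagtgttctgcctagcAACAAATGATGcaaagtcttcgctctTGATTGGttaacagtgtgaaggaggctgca
The Y box core began between 45 bases (H2-Oa) and 92 bases (H2-DMb2) before the start on which the window was built. For H2-DMb2 that start lies inside the annotated gene, which begins at 34143229. The X box core was found in H2-Eb1, H2-DMb1, H2-DMb2 and H2-Ob, and its first base stood 26 (H2-Ob), 28 (H2-Eb1) or 29 bases (both H2-DMb genes) before the first base of the Y box core. Of all 32851 windows in the table, 7.82% held the Y box core, 0.137% the X box core and 0.0274% both. Those with both were 9 windows, of which 4 belong to the set. As the X box form was chosen with the windows of the set in view, this count is a description and no test. The H2-DMb1 and H2-DMb2 windows shown above had the same base at 86 of 100 positions, while every other pair shared 22 to 40. Neither H2-DMa window held either core, and both lie inside the annotated gene, which begins at 34119693. The annotated first bases of H2-DMa and H2-DMb2 had no window and were not searched.

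The 17 arrays had median intensities of 98.55 to 107.4 and detected 46.9% to 51.7% of their probes, and arrays of the same group correlated at 0.939 to 0.986. Cpa3 itself was at 7.32 to 8.54 on the normalized log2 scale in the 5 Cpa3+/+ arrays and at 4.09 to 5.21 in the other 12. Of 9 measured mast cell markers 5 fell in Cpa3Cre/+ and 6 in KitW/Wv against Cpa3+/+ on HFD, beside 0.0416% and 1.8% of all genes. The mean distance of these markers from their means over the 17 arrays was 1.16 to 1.79 in Cpa3+/+ arrays. It was -0.85 to -0.45 in Cpa3Cre/+ and -0.65 to -0.58 in KitW/Wv arrays. Whether the Kit probes lie where the mutant alleles differ was not tested. Some arrays stood apart in marker lists, each summed up as the mean distance of its genes from their means over the 17 arrays. Cpa3+/+ LFD array 3 stood at 4.59 for 5 epididymis and testis markers. Cpa3Cre/+ LFD array 2 stood at 1.59 for 6 mesothelial and epithelial markers and at 1.49 for 8 skeletal muscle markers. KitW/Wv HFD array 1 stood at 2.65 for 7 B cell markers and at 1.31 for the muscle markers, and KitW/Wv LFD array 3 at 1.49 for the B cell markers. The class II calls that change without these arrays are also given without them.

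The diet comparison asked which class II genes differed between HFD and LFD within each genotype. In Cpa3Cre/+ mice 8 of the 10 genes rose, from a log2 fold change of 1.17 for Cd74 to 2.77 for H2-DMb2, H2-Oa and H2-Ob did not pass, and 5.95% of all tested genes rose in that comparison. In Cpa3+/+ mice, with 2 HFD arrays, 3 of 10 rose (H2-Eb1, H2-DMb1 and H2-DMb2), against 3.46% of all tested genes. In KitW/Wv mice 0 of 10 changed in limma's test, 0 also at an unadjusted p under 0.05 (3.41% of all genes), and 0.00594% of all tested genes, which is 1 gene, changed. The median log2 fold change of the 10 genes was 0.82, 1.41 and -0.18 in the 3 genotypes, beside -0.02, -0.02 and 0.00 for all genes. A fold change here is the difference of group means of normalized log2 signal. A call is an adjusted p below 0.05 over all 16833 genes. Probe signals were set against those of other genes only for the H2-DM genes, as a description.

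**Figure D1:**
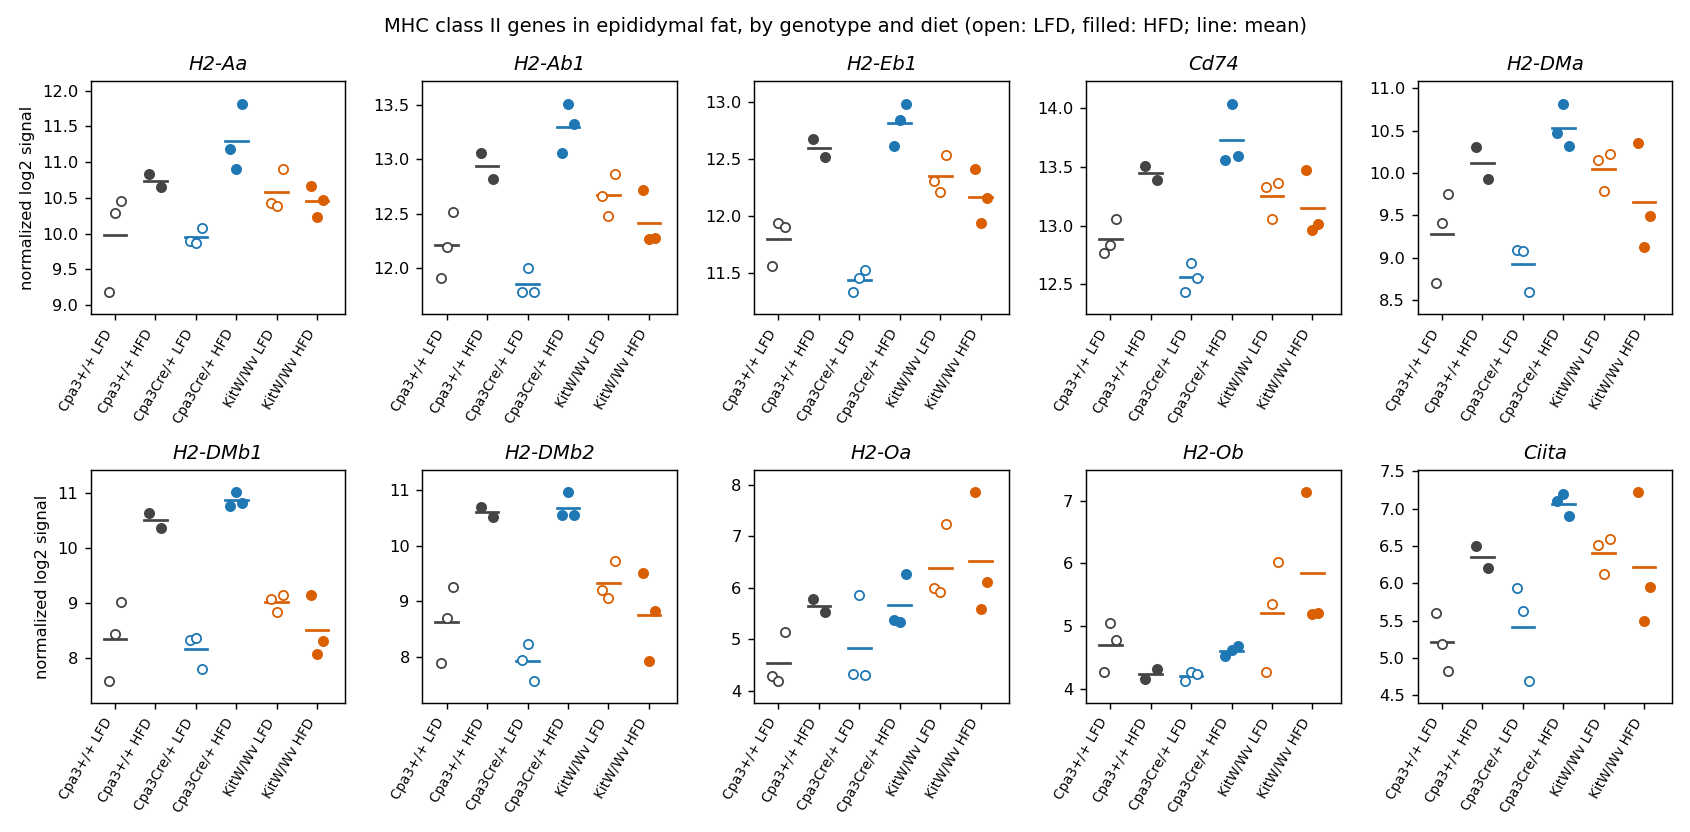
Normalized log2 signal (vertical axis) of the 10 MHC class II genes in each of the 17 arrays, by genotype and diet (horizontal axis), 1 probe a gene. Open points are LFD arrays, filled points HFD arrays and lines group means. H2-DMb1 lies between 10.4 and 11.0 in the 5 HFD arrays of Cpa3+/+ and Cpa3Cre/+ mice and between 7.60 and 9.15 in the other 12.

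The classical chains moved together. H2-Eb1, the I-E beta chain, was at 11.56, 11.94 and 11.90 in Cpa3+/+ mice on LFD and at 12.68 and 12.52 on HFD. The Cpa3Cre/+ arrays gave 11.33, 11.46 and 11.53 on LFD and 12.62, 12.84 and 12.99 on HFD, and the KitW/Wv arrays 12.30, 12.21 and 12.53 on LFD and 12.42, 11.94 and 12.16 on HFD. Every HFD array of Cpa3+/+ and Cpa3Cre/+ mice was above every LFD array of the same genotype, and the KitW/Wv arrays overlapped between diets. The log2 fold change on HFD was 0.80 ± 0.18 (SE, n = 3 and 2, limma adjusted p = 0.0222) in Cpa3+/+ and 1.37 ± 0.16 (n = 3 and 3, limma adjusted p = 7.56e-05) in Cpa3Cre/+ mice, and -0.18 in KitW/Wv mice with a 95% interval of -0.53 to 0.17.

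H2-Ab1, the I-A beta chain, was at 11.91, 12.20 and 12.52 in Cpa3+/+ mice on LFD and at 13.06 and 12.82 on HFD. In Cpa3Cre/+ mice it was at 11.78, 12.00 and 11.78 on LFD and at 13.06, 13.52 and 13.33 on HFD. In KitW/Wv mice it was at 12.67, 12.48 and 12.87 on LFD and at 12.71, 12.26 and 12.28 on HFD. The HFD arrays of both Cpa3 genotypes lay above their LFD arrays. The rise of 1.45 ± 0.19 in Cpa3Cre/+ mice passed the test (limma adjusted p = 0.000163), and the difference of 0.73 ± 0.21 in Cpa3+/+ mice did not (limma adjusted p = 0.0704). All 3 H2-Ab1 probes rose in Cpa3Cre/+ mice. H2-Aa, the I-A alpha chain, rose by 1.36 ± 0.30 in Cpa3Cre/+ mice (limma adjusted p = 0.00961), where it went from 9.87 to 10.08 on LFD to 10.91 to 11.82 on HFD. In Cpa3+/+ mice its difference was 0.76 ± 0.33 (limma adjusted p = 0.253), with 9.18, 10.28 and 10.46 on LFD and 10.83 and 10.65 on HFD.

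Cd74, the invariant chain that guards the peptide groove and also serves as a receptor for the cytokine MIF, rose by 1.17 ± 0.18 in Cpa3Cre/+ mice (limma adjusted p = 0.000528). Its values there were 12.44, 12.69 and 12.56 on LFD and 13.56, 14.04 and 13.60 on HFD. In Cpa3+/+ mice it was at 12.76, 12.84 and 13.06 on LFD and at 13.51 and 13.39 on HFD, without overlap, and the difference of 0.56 ± 0.20 did not pass (limma adjusted p = 0.135). Of the 3 Cd74 probes ILMN_1247832 gave the largest differences, and in a fit over all 25594 kept probes it rose in Cpa3+/+ mice too, by 1.10 ± 0.26 (limma adjusted p = 0.0305). Counted by probe, 4 of the 17 rose in Cpa3+/+ and 13 of the 17 in Cpa3Cre/+ mice, against 2.86% and 4.99% of all kept probes.

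**Figure D2:**
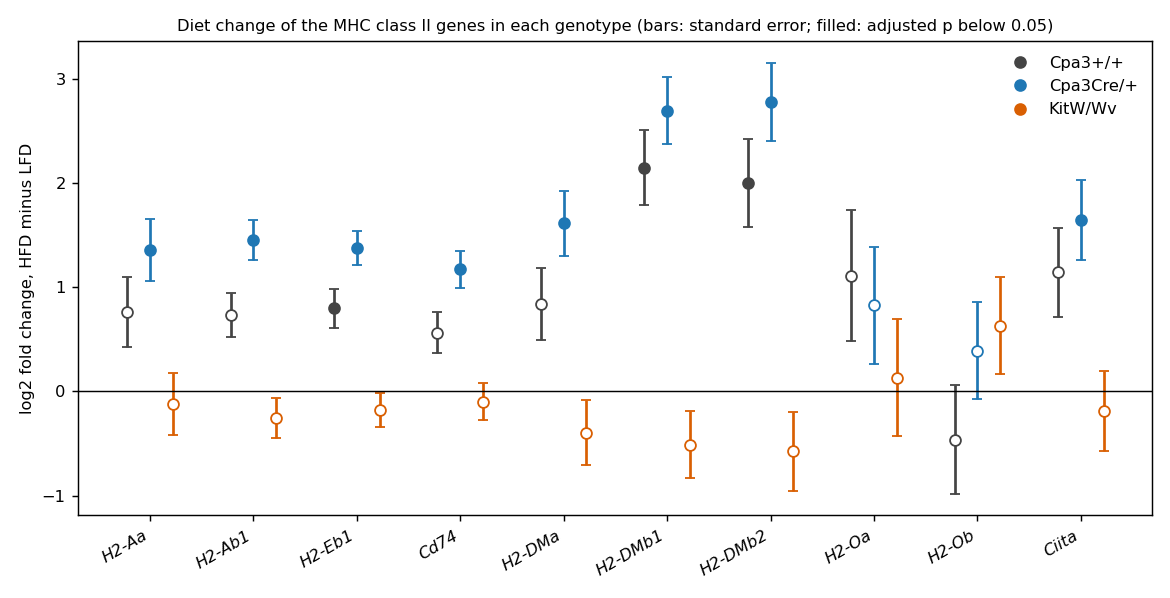
Log2 fold change, HFD minus LFD (vertical axis), of each MHC class II gene (horizontal axis) in the 3 genotypes. Bars are standard errors of limma's fit and filled points passed an adjusted p below 0.05. The H2-DMb points of Cpa3+/+ and Cpa3Cre/+ mice stand highest, between 2.00 and 2.77, and no KitW/Wv point is filled.

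Among the peptide-loading genes, the probes used for H2-DMb1 and H2-DMb2 held the widest diet differences of the set in both Cpa3 genotypes. H2-DMb1 was at 7.60, 8.44 and 9.03 in Cpa3+/+ mice on LFD and at 10.64 and 10.36 on HFD. Cpa3Cre/+ mice gave 8.34, 8.37 and 7.81 on LFD and 10.76, 11.01 and 10.82 on HFD, and KitW/Wv mice 9.07, 8.84 and 9.15 on LFD and 9.14, 8.08 and 8.31 on HFD. The 5 HFD arrays of the Cpa3 genotypes stood clear of all 12 others, the 3 KitW/Wv HFD arrays included. The rise was 2.15 ± 0.36 in Cpa3+/+ mice, a 4.42-fold change (limma adjusted p = 0.00289), and 2.69 ± 0.32 in Cpa3Cre/+ mice, a 6.47-fold change (limma adjusted p = 7.32e-05). In KitW/Wv mice the difference was -0.51, with a 95% interval of -1.19 to 0.18.

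Set against the mean of H2-Aa, H2-Ab1 and H2-Eb1 on the same array, the H2-DMb1 signal was not a fixed distance below the classical chains. That difference of log2 signals ran from -1.89 to -1.41 in the 5 HFD arrays of the Cpa3 genotypes, from -3.32 to -2.60 in their 6 LFD arrays and from -3.40 to -2.73 in the 6 KitW/Wv arrays. The difference carries each probe's own brightness, so its level cannot be read. The size of a change can also depend on the probe. For Cd74 in Cpa3Cre/+ mice, group means went from 12.56 to 13.73 by ILMN_3089584 and from 9.31 to 11.28 by the dimmer ILMN_1247832. Whether the shift of H2-DMb1 against the classical chains comes from the probes or from the RNA was not tested. H2-DMa, which pairs with either H2-DMb chain, kept a distance of -2.53 to -1.58 over all 17 arrays. H2-DMa rose by 1.61 ± 0.31 in Cpa3Cre/+ mice (limma adjusted p = 0.00399) and differed by 0.84 ± 0.35 in Cpa3+/+ mice (limma adjusted p = 0.223).

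H2-DMb2 has 2 probes that disagree. The one used for the gene, ILMN_2589164, read 7.89, 8.70 and 9.27 in Cpa3+/+ mice on LFD and 10.71 and 10.53 on HFD, and it rose by 2.00 ± 0.42 there (limma adjusted p = 0.0130) and by 2.77 ± 0.38 in Cpa3Cre/+ mice (limma adjusted p = 0.000212). The other, ILMN_2979639, read 4.66, 4.74 and 6.25 in Cpa3+/+ mice on LFD and 5.21 and 4.52 on HFD, and 4.49 to 5.23 in all 6 Cpa3Cre/+ arrays. Its highest readings came from KitW/Wv mice, 5.66, 6.28 and 7.07 on LFD and 7.37, 4.50 and 6.14 on HFD. Over the 17 arrays the Pearson correlation of the 2 probes was 0.0939, whereas probes of one gene for H2-Ab1, H2-DMa, H2-Oa and Cd74 correlated at 0.841 to 0.984, as a description. With the mean of both probes, H2-DMb2 no longer passed in any comparison (0.83, limma adjusted p = 0.472, in Cpa3+/+ mice and 1.35, limma adjusted p = 0.0997, in Cpa3Cre/+ mice). H2-DMb1 and H2-DMb2 are close copies, and ILMN_2589164 correlated with the H2-DMb1 probe at 0.968 over the 17 arrays. Whether each probe tells the genes apart was not tested, so calls of both may rest on a shared signal. The H2-DMb2 values carry that doubt.

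**Figure D3:**
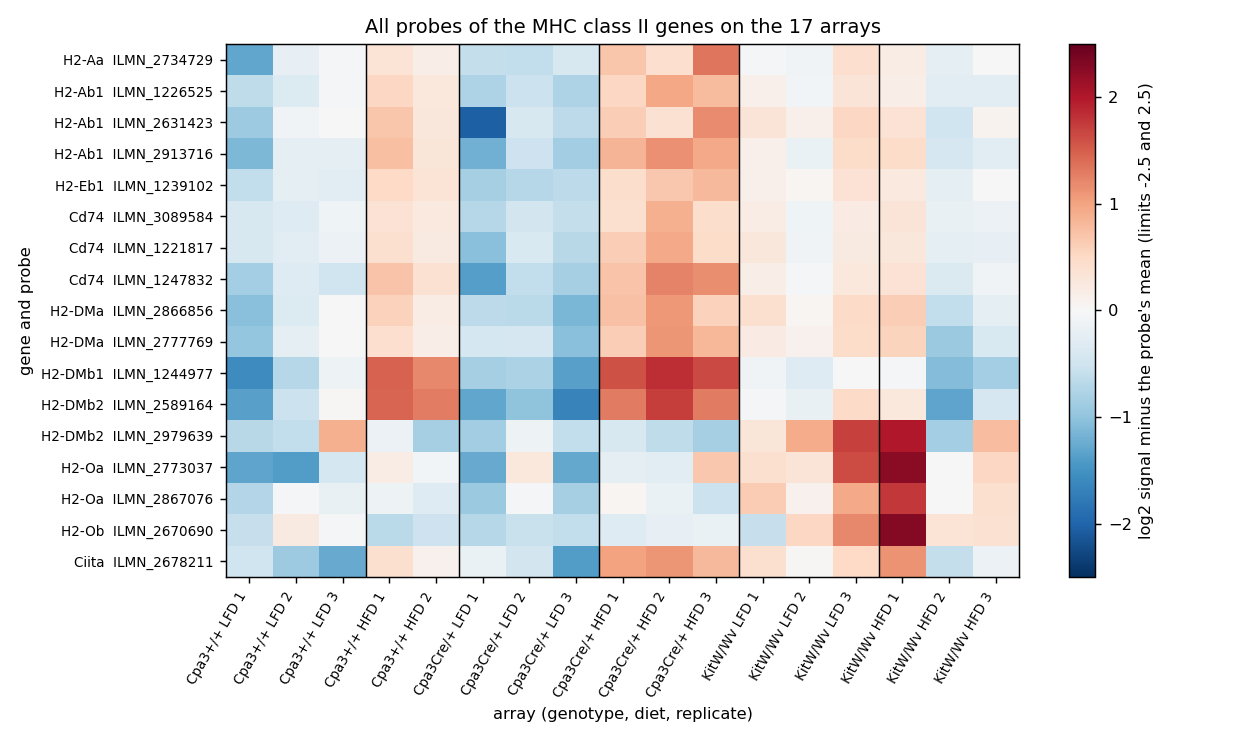
Log2 signal of each of the 17 probes of the MHC class II genes (rows) minus the probe's mean, on each of the 17 arrays (columns, by genotype, diet and replicate). Red is above the mean and blue below, with black lines between groups. Rows from H2-Aa to H2-DMb2 probe ILMN_2589164 share 1 pattern, red in the HFD arrays of Cpa3+/+ and Cpa3Cre/+ mice, and H2-DMb2 probe ILMN_2979639, both H2-Oa probes and H2-Ob share another, with the deepest red in KitW/Wv LFD array 3 and KitW/Wv HFD array 1.

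The H2-DO genes followed another order. H2-Oa, the DO alpha chain, was at 4.28, 4.2 and 5.15 in Cpa3+/+ mice on LFD and at 5.78 and 5.52 on HFD. Cpa3Cre/+ mice gave 4.33, 5.85 and 4.31 on LFD and 5.37, 5.33 and 6.27 on HFD. KitW/Wv mice gave 6.00, 5.93 and 7.23 on LFD and 7.85, 5.59 and 6.11 on HFD. The KitW/Wv LFD arrays were above all LFD arrays of the other genotypes, and on HFD the groups overlapped. H2-Ob, the DO beta chain, was close to background outside KitW/Wv mice: it was detected in none of the 2 Cpa3+/+ HFD arrays, none of the 3 Cpa3Cre/+ LFD arrays, and 2 of 3 arrays in each of Cpa3+/+ LFD, Cpa3Cre/+ HFD and KitW/Wv LFD. The KitW/Wv HFD arrays read 7.13, 5.19 and 5.21, all detected, at least 2.74-fold above the Cpa3+/+ HFD arrays, taking for each of those the higher of its own signal and the lowest detected signal (limma adjusted p = 0.141). Without KitW/Wv HFD array 1 that bound was 1.75-fold, and the fitted difference was 0.96 in place of 1.60. The overlap of H2-Oa in Cpa3Cre/+ mice came from LFD array 2, and the diet difference there of 0.82 was 1.33 without it (limma adjusted p = 0.194) and 1.33 without all 3 arrays that stood apart (limma adjusted p = 0.0474). With all arrays neither gene passed the test in any comparison, and their diet differences in KitW/Wv mice, 0.13 for H2-Oa and 0.63 for H2-Ob, turned to -0.53 and -0.01 without KitW/Wv HFD array 1.

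B cell and T cell markers were high in some of the same arrays as the DO genes. Cd79b, a signalling chain of the B cell receptor, read 6.77, 7.78 and 8.96 in KitW/Wv mice on LFD and 10.2, 7.48 and 8.52 on HFD, and 5.18 to 6.18 in the 11 other arrays. The mean of the 7 measured B cell markers stood at 0.03 to 1.49 in KitW/Wv LFD arrays and 0.38 to 2.65 in KitW/Wv HFD arrays, and at -0.83 to -0.27 elsewhere. The array highest in B cell markers, KitW/Wv HFD array 1, also gave the highest H2-Oa and H2-Ob signals of all 17. Ciita read 7.22 there and 7.20 in Cpa3Cre/+ HFD array 2, where the mean of the B cell markers stood at -0.47. On HFD, 5 of the 7 rose in KitW/Wv against Cpa3Cre/+ mice, led by Fcmr, the receptor for IgM (4.18 ± 0.77, limma adjusted p = 0.00378), and Cd79b (2.93 ± 0.59, limma adjusted p = 0.00691). Against Cpa3+/+ mice it was 3 of 7, and the shares of all genes that rose were 3.02% and 0.6%. Without KitW/Wv HFD array 1 these counts became 3 and 1, with Cd79b at 2.20 ± 0.52 (limma adjusted p = 0.0249) and Fcmr at 3.38 ± 0.74 (limma adjusted p = 0.0173) against Cpa3Cre/+ mice. The 7 measured T and NK cell markers stood at 1.44 on KitW/Wv HFD array 1 and 0.78 on KitW/Wv LFD array 3, and at -0.72 to 0.45 on the others. Of these, Cd3e (1.82 ± 0.52, limma adjusted p = 0.0456) and Cd3g (1.63 ± 0.46, limma adjusted p = 0.0419), chains of the T cell receptor complex, rose in KitW/Wv against Cpa3Cre/+ mice on HFD. Cd3d (1.75), Cd2 (0.03), Nkg7 (-0.18), Klrb1c (-0.53) and Cd8b1 (-0.75) did not pass there. None of the 7 passed without KitW/Wv HFD array 1. The part of these cells in the class II values of KitW/Wv fat was not tested, and in bulk tissue more cells of a type and more RNA per cell cannot be told apart.

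Ciita, the class II co-activator, was at 5.6, 5.19 and 4.83 in Cpa3+/+ mice on LFD and at 6.50 and 6.20 on HFD. In Cpa3Cre/+ mice it was at 5.94, 5.63 and 4.70 on LFD and at 7.10, 7.20 and 6.90 on HFD. The KitW/Wv arrays gave 6.51, 6.13 and 6.59 on LFD and 7.22, 5.49 and 5.95 on HFD. HFD arrays lay above LFD arrays in both Cpa3 genotypes, and the KitW/Wv HFD arrays spread over most of the range of the whole study. The rise of 1.65 ± 0.38 in Cpa3Cre/+ mice passed (limma adjusted p = 0.0137), and was lost without LFD array 3 or without HFD array 2, with a limma adjusted p of at most 0.0691. The difference of 1.14 ± 0.43 in Cpa3+/+ mice did not pass (limma adjusted p = 0.171).

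With arrays counted by overlap alone, 9 of 10 genes had all HFD arrays above all LFD arrays in Cpa3+/+ mice and 9 of 10 in Cpa3Cre/+ mice, against 17.6% and 12.7% of all genes. The exceptions were H2-Ob and H2-Oa, in that order. In KitW/Wv mice it was 0 of 10, against 5.27%. The Cpa3+/+ calls rest on few arrays: without HFD array 1 none of the 10 passed, and with only the 2 groups in the fit none passed either, while without Cpa3+/+ LFD array 3, which carried the epididymis and testis markers, 4 did. H2-DMb2 was also lost without Cpa3+/+ HFD array 2, and H2-Eb1 without that array or Cpa3+/+ LFD array 1. The 8 calls in Cpa3Cre/+ mice became 7 or 8 when any 1 array was left out.

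On HFD, KitW/Wv group means were below those of either Cpa3 genotype for 8 of 10 genes, with H2-Oa and H2-Ob the exceptions. The H2-DMb genes, by the probes used, passed the test against both. Whether these probes read separate genes was not tested, and with the mean of its probes H2-DMb2 passed against neither. Against Cpa3Cre/+ mice 4 of 10 genes were lower at an adjusted p below 0.05, beside 4.93% of all genes: H2-DMb1 by -2.35 ± 0.32 (limma adjusted p = 0.000427), H2-DMb2 by -1.94 ± 0.38 (limma adjusted p = 0.00531), H2-Ab1 by -0.89 ± 0.19 (limma adjusted p = 0.0104) and H2-Eb1 by -0.64 ± 0.16 (limma adjusted p = 0.0264). Cd74 was at -0.58 ± 0.18 (limma adjusted p = 0.0591) and H2-DMa at -0.88 ± 0.31 (limma adjusted p = 0.106). Against Cpa3+/+ mice 2 of 10 were lower, H2-DMb1 (-1.99 ± 0.36, limma adjusted p = 0.00943) and H2-DMb2 (-1.86 ± 0.42, limma adjusted p = 0.0318), beside 1.8% of all genes. By overlap, 6 genes against Cpa3Cre/+ and 4 against Cpa3+/+ mice had every KitW/Wv array below every other, with backgrounds of 14.6% and 18.4%.

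The differences were larger without KitW/Wv HFD array 1, the one with the highest B cell markers. Without it 7 genes were lower than in Cpa3Cre/+ mice, the additional ones being H2-DMa (-1.23 ± 0.29, limma adjusted p = 0.0245), Cd74 (-0.75 ± 0.18, limma adjusted p = 0.0266) and Ciita (-1.34 ± 0.32, limma adjusted p = 0.0268). Without Cpa3Cre/+ HFD array 2 or KitW/Wv HFD array 3 only 2 of the 10 passed, and H2-DMb1 and H2-DMb2 passed whichever array was left out. H2-Eb1 was lost without Cpa3Cre/+ HFD array 2 or 3 or KitW/Wv HFD array 2 or 3, and H2-Ab1 without Cpa3Cre/+ HFD array 2 or KitW/Wv HFD array 3. Against Cpa3+/+ mice none passed without either of the 2 Cpa3+/+ HFD arrays, and H2-DMb2 was also lost without KitW/Wv HFD array 2 or 3. The 2 comparisons share the KitW/Wv arrays.

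On LFD the order of the group means was the other way. All 10 genes had higher group means in KitW/Wv than in Cpa3+/+ and in Cpa3Cre/+ mice on LFD, with medians of 0.63 and 0.95 beside 0.00 and -0.01 for all genes. None passed limma's test in either comparison, where 0.0475% and 0% of all genes did, and 5 and 9 of the 10 had an unadjusted p under 0.05, as did 5.17% and 4.54% of all genes. The LFD arrays did not overlap for 4 of 10 genes against Cpa3+/+ mice (H2-Eb1, H2-DMa, H2-Oa and Ciita) and for 9 of 10 against Cpa3Cre/+ mice (all but H2-Ob), where 4.91% and 4.53% of all genes had such an order. H2-Eb1 had the smallest unadjusted p against Cpa3Cre/+ mice, at 0.91 ± 0.16 (limma adjusted p = 0.31). B cell markers stood at 0.03 to 1.49 in these KitW/Wv LFD arrays, above the other genotypes, as given above. The mean of 12 macrophage markers stood at -0.173 to -0.105 in them. It stood at -0.417 to -0.39 in Cpa3+/+ and at -0.827 to -0.437 in Cpa3Cre/+ LFD arrays. The part of either cell type in the class II values was not tested.

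The diet change itself differed between genotypes. Of the 10 genes, 6 had a smaller change in KitW/Wv than in Cpa3Cre/+ mice by the interaction term, beside 2.11% of all genes: H2-DMb2 (-3.35 ± 0.53), H2-DMb1 (-3.20 ± 0.45), H2-DMa (-2.01 ± 0.44), H2-Ab1 (-1.71 ± 0.27), H2-Eb1 (-1.55 ± 0.23) and Cd74 (-1.27 ± 0.25), with limma adjusted p-values of 0.00134 to 0.0225. When single arrays were left out, H2-DMa lost its call in 7 of 12 fits (without Cpa3Cre/+ LFD 3, HFD 1 or HFD 2, or KitW/Wv LFD 1, LFD 3, HFD 2 or HFD 3), and the other 5 kept theirs. Ciita (-1.83 ± 0.54, limma adjusted p = 0.104) and H2-Aa (-1.48 ± 0.42, limma adjusted p = 0.0917) did not pass. Against Cpa3+/+ mice 2 of 10 passed, H2-DMb1 (-2.65 ± 0.48, limma adjusted p = 0.0185) and H2-DMb2 (-2.58 ± 0.56, limma adjusted p = 0.0488), beside 0.802% of all genes, and none did when either Cpa3+/+ HFD array, KitW/Wv LFD array 3 or KitW/Wv HFD array 3 was left out. H2-DMb2 lost this call in 9 of 11 such fits and kept it without Cpa3+/+ LFD array 3 or KitW/Wv HFD array 1. With the mean of its probes H2-DMb2 lost the interaction calls against both Cpa3 genotypes. Between Cpa3Cre/+ and Cpa3+/+ mice no gene of the 16833 passed (0%), and 3 of the 10 had an unadjusted p under 0.05, as did 4.02% of all genes.

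The 2 genotypes that differ at the Cpa3 locus, with and without mast cells, had no called difference in class II genes. Between Cpa3Cre/+ and Cpa3+/+ mice none of the 10 passed on HFD or on LFD in limma's test, where 0.0416% and 0.0356% of all genes did, and 0 and 1 of the 10 had an unadjusted p under 0.05, as did 4.89% and 3.47% of all genes. By overlap, 6 of the 10 had every Cpa3Cre/+ HFD array above every Cpa3+/+ HFD array, against 13.1% of all genes. The intervals are wide enough to hold moderate differences: on HFD H2-Ab1 was at 0.36 with a 95% interval of -0.09 to 0.82, and H2-DMb1 at 0.36 with -0.40 to 1.13. On LFD H2-Eb1 was at -0.36 with -0.71 to -0.01. All 10 differences were above 0 on HFD and 8 were below 0 on LFD.

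The genes that serve the class II route were read from lists chosen by function. Of 10 genes around the cutting of antigen and invariant chain, namely 8 proteases, the reductase Ifi30 and the cathepsin inhibitor Cst3, 7 rose in Cpa3Cre/+ and 4 in Cpa3+/+ mice on HFD, and 0 in KitW/Wv mice. The shares of all tested genes that rose were 5.95%, 3.46% and 0.00594%, for the lists that follow too. Ctss, the cathepsin that trims the invariant chain, rose by 2.74 ± 0.22 (limma adjusted p = 2.37e-06) in Cpa3Cre/+ and 2.56 ± 0.25 (limma adjusted p = 3.82e-05) in Cpa3+/+ mice. Ifi30, the reductase that opens disulfide bonds of antigens, rose by 2.01 ± 0.25 and 1.54 ± 0.28, Lgmn, the asparagine endopeptidase, by 1.64 ± 0.21 and 1.01 ± 0.23, and Ctsz by 1.56 ± 0.22 and 1.27 ± 0.25. The diet change of Ctss was smaller in KitW/Wv than in Cpa3Cre/+ mice by -2.21 ± 0.31 (limma adjusted p = 0.00129) and than in Cpa3+/+ mice by -2.03 ± 0.33 (limma adjusted p = 0.00972).

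Of the 7 subunits of the proteins that bind the X and Y boxes (Rfx5, Rfxap, Rfxank, Nfya, Nfyb, Nfyc and Creb1), 0 passed limma's test in any of the 12 comparisons, and their differences in Cpa3Cre/+ mice on HFD lay between -0.36 and 0.23. Among 9 measured genes of the interferon gamma route to Ciita, Spi1 (PU.1) rose by 2.26 ± 0.19 and Irf8 by 1.64 ± 0.20 in Cpa3Cre/+ mice, both myeloid transcription factors, and Jak1, a kinase of the interferon receptors, fell by 1.5 on the log2 scale (SE 0.19, limma adjusted p = 0.000132). In Cpa3+/+ mice the same 3 were called, at 1.45 ± 0.21, 1.08 ± 0.22 and -1.31 ± 0.21. Of 5 measured genes for class II surface turnover, Il10ra (1.90 ± 0.34), Cd83 (1.59 ± 0.26), which keeps class II on the surface, and Marchf1 (1.15 ± 0.31), the ligase that removes it, rose in Cpa3Cre/+ mice, and none rose in Cpa3+/+ mice. Of 7 co-stimulation genes, Cd48 rose (1.45 ± 0.29) in Cpa3Cre/+ mice. Of 15 class I genes, H2-Q6 (1.22 ± 0.30) and H2-Q7 (0.95 ± 0.24) rose in Cpa3Cre/+ and none in Cpa3+/+ mice. H2-Ea, the I-E alpha chain, was at 1.25 ± 0.38 in Cpa3Cre/+ mice (limma adjusted p = 0.0513). No gene of these lists changed with diet in KitW/Wv mice, where 1 of the 16833 tested genes did.

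Macrophage markers were high in the same groups as most class II genes. Of 12 measured, 10 rose in Cpa3Cre/+ and 4 in Cpa3+/+ mice on HFD and 0 in KitW/Wv mice. Beside them, 5.95%, 3.46% and 0.00594% of all tested genes rose. Cd68 rose by 3.62 ± 0.36 and Mpeg1 by 2.75 ± 0.19 in Cpa3Cre/+ mice, and by 2.61 ± 0.40 and 2.14 ± 0.21 in Cpa3+/+ mice. Of 10 dendritic cell markers 3 rose in Cpa3Cre/+ mice, Itgax (2.47 ± 0.14), Batf3 (1.65 ± 0.33) and Clec10a (1.01 ± 0.23), and 1 in Cpa3+/+ mice, Itgax (1.89 ± 0.16), while Flt3 and Zbtb46 did not pass in any of the 3 genotypes. Itgax, which encodes CD11c of dendritic cells and of macrophages in obese fat, read 6.09 and 6.09 in Cpa3+/+ and 6.48 to 6.94 in Cpa3Cre/+ mice on HFD, and 4.14 to 4.50 in all other arrays, including KitW/Wv on HFD. It was detected on 5 of the 17 arrays, and its diet changes are taken against readings close to background. The mean of the macrophage markers stood at 0.52 to 0.96 in the 5 HFD arrays of the Cpa3 genotypes, at -0.83 to -0.39 in their LFD arrays, and at -0.17 to 0.08 in KitW/Wv arrays. That of the 10 dendritic cell markers covered 0.07 to 0.31, -0.22 to -0.04 and -0.12 to 0.09 in the same arrays. Over the 17 arrays the Pearson correlation of the class II genes with the macrophage list ran from 0.0204 (H2-Ob) to 0.913 (H2-Eb1). With group means taken off it ran from -0.206 (Ciita) to 0.442 (H2-Eb1). For the B cell list the same ranges were -0.118 (H2-DMb1) to 0.937 (H2-Ob) and 0.427 (H2-Aa) to 0.922 (H2-Ob). The B cell list spread widest in KitW/Wv arrays, from 0.03 to 1.49 on LFD and 0.38 to 2.65 on HFD. Those arrays take part in its second range. These values are a description. The part of macrophages or dendritic cells in the class II differences was not tested.

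**Figure D4:**
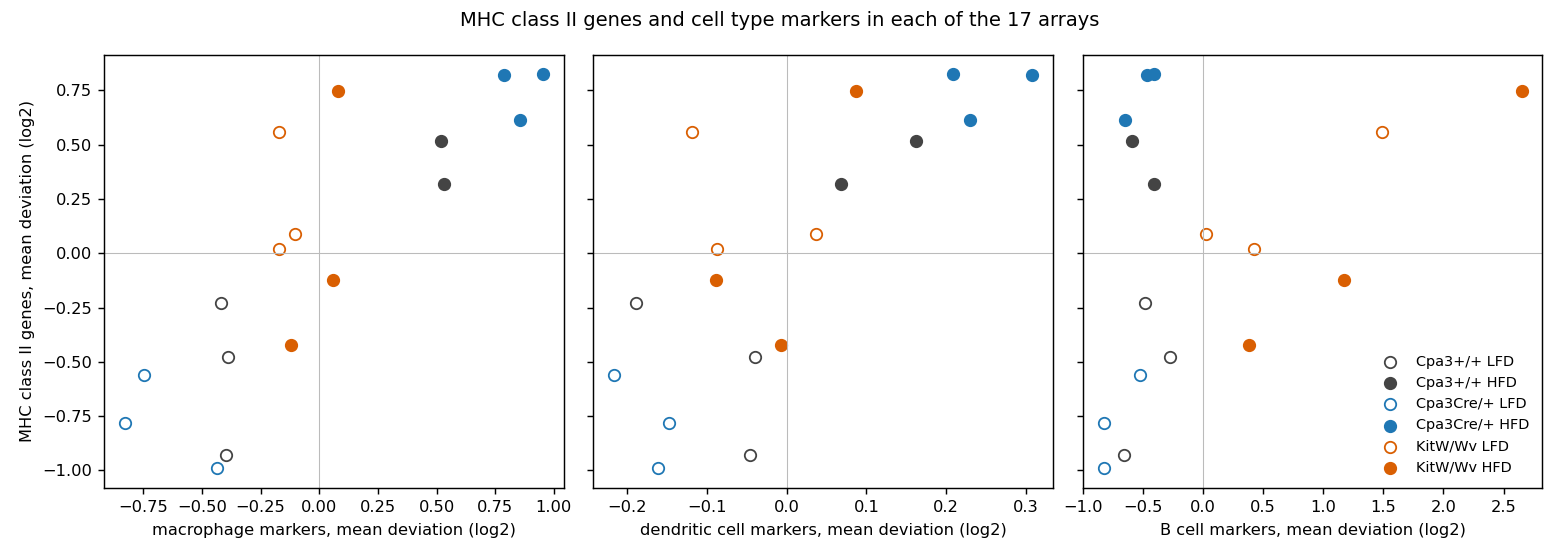
Mean deviation of the 10 MHC class II genes from their means over the 17 arrays (vertical axis, log2) against that of 12 macrophage, 10 dendritic cell and 7 B cell markers (horizontal axes, log2), 1 point an array. Filled points are HFD and open points LFD. HFD arrays of Cpa3+/+ and Cpa3Cre/+ mice lie high on the macrophage axis, and KitW/Wv HFD array 1, at 2.65, lies farthest on the B cell axis.

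The 8 genes most like the class II set over the 17 arrays, by Pearson correlation with the mean of the standardized members, were Coro1a (0.959), Arhgdib (0.948), Ptpn6 (0.939), Ly86 (0.931), Was (0.927), Map4k1 (0.926), Lyz2 (0.926) and Cmtm7 (0.924). Coro1a, Ptpn6 and Was are genes of blood-derived cells, and Lyz2 is a myeloid lysozyme. Their diet changes ran from 0.82 (Cmtm7) to 2.03 (Ptpn6) in Cpa3+/+, from 1.34 (Cmtm7) to 2.75 (Map4k1) in Cpa3Cre/+ and from -0.02 (Lyz2) to 0.20 (Coro1a) in KitW/Wv mice. After the group means were taken off, which leaves the spread between arrays of a group, the order was led by Ptpn6 (0.938), Plcg2 (0.902), Rnase6 (0.893) and Coro1a (0.881), followed by Cxcr5 (0.873), Arhgdib (0.862), Scimp (0.861) and Bmp15 (0.860). Cxcr5 is the chemokine receptor that draws B cells into follicles, and KitW/Wv HFD array 1 and KitW/Wv LFD array 3 take part in this second order. These correlations describe the 17 arrays, which share groups.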

How the data were processed

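Total RNA of mouse epididymal fat was measured on 17 Illumina bead arrays. The deposited intensity of each probe is on a linear scale with no normalization between arrays that the values show, and the file also gives a detection p-value per probe and array, per the file headers; the submitters' processing notes name GenomeStudio, with no version given. The authors also deposited a normalized intensity table, used as an alternative, by a method not stated in the sources at hand. Probes were named through the platform annotation, updated to RefSeq symbols by Entrez ID where one matched (28620 probes) or else by accession, and 35784 of 46237 probes have a symbol.

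Intensities were background-corrected from the detection p-values and quantile-normalized with limma's neqc (offset 16), then taken to log2. The filter asked for a detection p below 0.05 on 2 or more arrays. Each gene was represented by its probe of highest mean. Group means of all 17 arrays were fitted with limma 3.58.1 in R 4.3.3 (lmFit, contrasts, eBayes; 11 residual degrees of freedom), with Benjamini-Hochberg adjustment over 16833 genes and a threshold of 0.05. The script was tested on simulated data. 9 comparisons of group pairs and 3 interactions were made. The number of arrays limits the precision. Alternatives were median scaling, no background correction, the authors' values, other filters, the mean of all probes, only the groups compared, an intensity trend, the replicate number as a block, and each array left out.

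The members, lists and alternatives were chosen with earlier results of these data known, although the rule for the members uses no value. Named were all members, up to 4 called genes per pathway list and direction, and the 8 genes most like the set. Some listed genes were not analysed here.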

Additional observations from a re-analysis of the deposited data

Results flagged for a closer look

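The diet change of some class II genes differed between genotypes by the interaction term in limma's fit, with negative values where the change was smaller in KitW/Wv mice. KitW/Wv against Cpa3Cre/+ mice gave -3.35 ± 0.53 for H2-DMb2, -3.20 ± 0.45 for H2-DMb1, -2.01 ± 0.44 for H2-DMa, -1.71 ± 0.27 for H2-Ab1, -1.55 ± 0.23 for H2-Eb1 and -1.27 ± 0.25 for Cd74. KitW/Wv against Cpa3+/+ mice gave -2.65 ± 0.48 for H2-DMb1 and -2.58 ± 0.56 for H2-DMb2. In each case the group means on HFD were lower and those on LFD higher in KitW/Wv than in the other genotype. H2-DMb2 is read here by probe ILMN_2589164 alone.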

How the results depend on the processing

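The number of class II genes called depended on the setting in some comparisons, and where a value is not explained by fewer arrays or genes in the fit, the cause was not tested. For the diet in Cpa3+/+ mice (3 called) it was 0 with only the groups compared and 5 without the 3 arrays high in other markers (Cpa3+/+ LFD 3, Cpa3Cre/+ LFD 2 and KitW/Wv HFD 1), an alternative chosen after seeing the data, and 0 to 4 when each array was left out. For Cpa3Cre/+ mice it was 7 to 8 with each array left out, and 0 in every setting for KitW/Wv mice. KitW/Wv against Cpa3+/+ mice on HFD (2) gave 1 with the mean of all probes, with the replicate block and with only the groups compared, and 0 to 2 with each array left out. KitW/Wv against Cpa3Cre/+ mice on HFD (4) gave 7 with median scaling and without the 3 arrays, and 2 to 7 with each array left out. The interaction of KitW/Wv with Cpa3+/+ mice (2) gave 1 with median scaling, with no filter, with the mean of all probes and with the replicate block, 0 with only the groups compared, 4 without the 3 arrays, and 0 to 2 with each array left out. That with Cpa3Cre/+ mice (6) gave 5 to 7. The replicate numbers gave no clear pairing of the arrays. Of 40 same-number pairs 16 correlated above 0.1, with a mean of 0.0364 beside -0.0167 for other pairs. Of 17 arrays 7 were closest to one of their own number. The replicate block moved no other count of calls by over 1.5 times. Whether the numbers or the deposited order mark a batch was not tested. Median scaling moved all calls of the diet in Cpa3Cre/+ mice from 64.7% to 86.8% higher and those of KitW/Wv against Cpa3Cre/+ mice on HFD from 38% to 16.1% higher, and the direction of every called member stayed. With median scaling the all-gene median was 0.0918 for the diet in Cpa3Cre/+ mice (-0.0222 otherwise) and 0.123 for Cpa3Cre/+ against Cpa3+/+ mice on HFD (0.0179 otherwise), where 14.3% of the calls were higher and 0% otherwise.

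The 25 called member changes kept their direction in all 441 recomputed values and passed in 383. Of 65 not called, 15 of 1089 values turned sign. Ciita in KitW/Wv against Cpa3+/+ mice on HFD turned to 0.008 with the replicate block and ran from -0.628 to 0.235 with each array left out. For the diet in KitW/Wv mice, H2-Oa turned to -0.534 and H2-Ob to -0.0142 without the 3 arrays, and with each array left out H2-Oa ran from -0.534 to 0.596, H2-Ob from -0.0142 to 1.04, H2-Aa from -0.223 to 0.0453 and Ciita from -0.688 to 0.175. The interaction of H2-Ob between KitW/Wv and Cpa3Cre/+ mice turned to -0.438 without the 3 arrays and ran from -0.407 to 0.644 with each array left out.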
